A study of Mus musculus with 24 samples.

Results

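Collagens, laminins, fibulins, thrombospondins, lysyl oxidases, collagen hydroxylases and integrins were followed in 3T3-L1 adipocytes treated with an agonist of PPARδ or of PPARγ. Members were all measured genes whose symbol names a collagen chain, begins with Lama, Lamb or Lamc and a number, or begins with Fbn, Fbln, Lox, Thbs, Plod, P4ha, Itga or Itgb. This gave 50 genes of the 8389 with a symbol of their own, of which 49 had values with each agonist: Itgae was absent from the PPARδ arrays and Itgb7 from the PPARγ arrays. No measured gene began with Fbn. A gene's value is that of its brightest probe, by the mean of the 12 arrays compared, and 19 members had more than 1 probe in each comparison. All deposited probes had passed the authors' filter, which asked for detection in at least 1 sample, so genes of these families that did not reach it are outside the counts.

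3T3-L1 is an established mouse line of preadipocytes, fibroblast-like cells that fill with lipid after hormonal induction, and it is a single cell line in culture with no vessels or immune cells of a tissue. From day 11 after induction the cells spent 2 days in medium with serum, insulin and either the vehicle DMSO, GW610742, a PPARδ selective agonist, at 1 μM per the labels, or GW347845, a PPARγ selective agonist, at 100 μM per the labels. The study's methods give other concentrations for GW347845 and more than 1 for GW610742, so the concentration on the arrays is not settled. Each group had 6 Illumina mouse WG-6 arrays, described as independent hybridizations, and nothing states that each came from a culture prepared apart, so p-values measure the spread between these arrays, which may be technical. The cells were lifted with trypsin, which cuts matrix and surface proteins, before RNA was extracted. The arrays measured RNA only.

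The values were log2 values after variance stabilization, on which a difference of 1 is about a doubling. Each agonist's arrays were quantile normalized together with the DMSO arrays, so the DMSO hybridizations are present in 2 versions. After each probe's mean was removed, DMSO columns of the same number correlated by at least 0.9987 across probes, and columns of different numbers by at most 0.226. Both comparisons thus shared their 6 controls, and levels are read within a comparison only. Among the arrays, replicate 6 of GW347845 stood apart in being closer to the DMSO arrays (median correlation 0.9902) than to its own group (0.9869). Replicate 3 had much the same correlation to that group (0.9871), and 0.9854 to the DMSO arrays. Cells carried transcripts of both adipocytes and their precursors: in the DMSO arrays of the PPARγ comparison Adipoq (adiponectin, a hormone of fat cells) stood at 12.88 ± 0.44 (SD, n = 6) on the log2 scale, and Dlk1, a marker of preadipocytes, at 14.37 ± 0.08 (SD, n = 6). These 2 were among the brightest of their lists. Of 13 adipocyte markers 9 were measured there, and Lpl (14.09), Cidec (10.43) and Pparg (9.61) were also bright. Fabp4 (6.39), Slc2a4 (6.59), Lipe (6.93), Plin1 (7.01) and Lep (7.01) were low. Of 13 preadipocyte and fibroblast markers 12 were measured, and the lowest was Cd34 at 6.81. Of 8 leukocyte markers, 1 was measured, and it was not called in either comparison, and none of the endothelial markers was measured. In these bulk cultures, fewer cells of a type and less RNA per cell cannot be told apart.

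The extracellular matrix of fat is a mesh in which each adipocyte sits. Fibrillar collagens of types I, III and V assemble into the ropes between cells, and type IV collagen and laminins form the basement membrane that wraps each adipocyte. Before secretion, prolyl and lysyl hydroxylases modify the collagen chains, and outside the cell lysyl oxidases cross-link them. Integrins, pairs of an α and a β subunit, anchor the cell to this mesh. Fibroblast-like preadipocytes make much type I and III collagen, and as they become adipocytes the balance is known to move towards basement membrane components. PPARγ is the main transcription factor of that differentiation, and PPARδ is known for driving genes of fatty acid burning.

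With the PPARγ agonist, 3 chains of the fibrillar collagens and 1 laminin chain fell with no overlap between the groups. How many of all genes had no overlap was not counted with either agonist, so the lack of overlap describes the named genes only. Col3a1, which encodes the single chain of type III collagen, had log2 values from 12.10 to 12.49 (median 12.36) in the DMSO arrays and from 10.89 to 11.47 (median 11.20) in the treated arrays. Its log2 fold change was -1.16 (SE 0.091, adjusted p = 4.4e-07), 2.24-fold lower and the greatest change in either direction among the members with either agonist. Every treated array lay below every DMSO array. Col5a2, a chain of type V collagen, which sits in the core of type I fibrils and limits their width, ranged from 8.08 to 8.49 (median 8.24) with DMSO and from 7.35 to 7.52 (median 7.48) with the agonist. It fell by 0.78 on the log2 scale (SE 0.063, adjusted p = 6.2e-07), again with no overlap of the groups and with treated arrays closer together than the controls. Col1a2, the α2 chain of type I collagen, ranged from 9.77 to 10.11 (median 9.96) with DMSO and from 9.04 to 9.62 (median 9.18) with the agonist, a log2 fold change of -0.71 (SE 0.092, adjusted p = 4.1e-05). Here too the groups were apart. Lamb1, the β1 chain shared by several laminins of basement membranes, ranged from 6.96 to 7.13 (median 7.07) with DMSO and from 6.56 to 6.77 (median 6.67) with the agonist. It fell by 0.39 (SE 0.045, adjusted p = 1.2e-05), with no overlap, on a probe that is among the dimmest of the arrays.

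**Figure D1:**
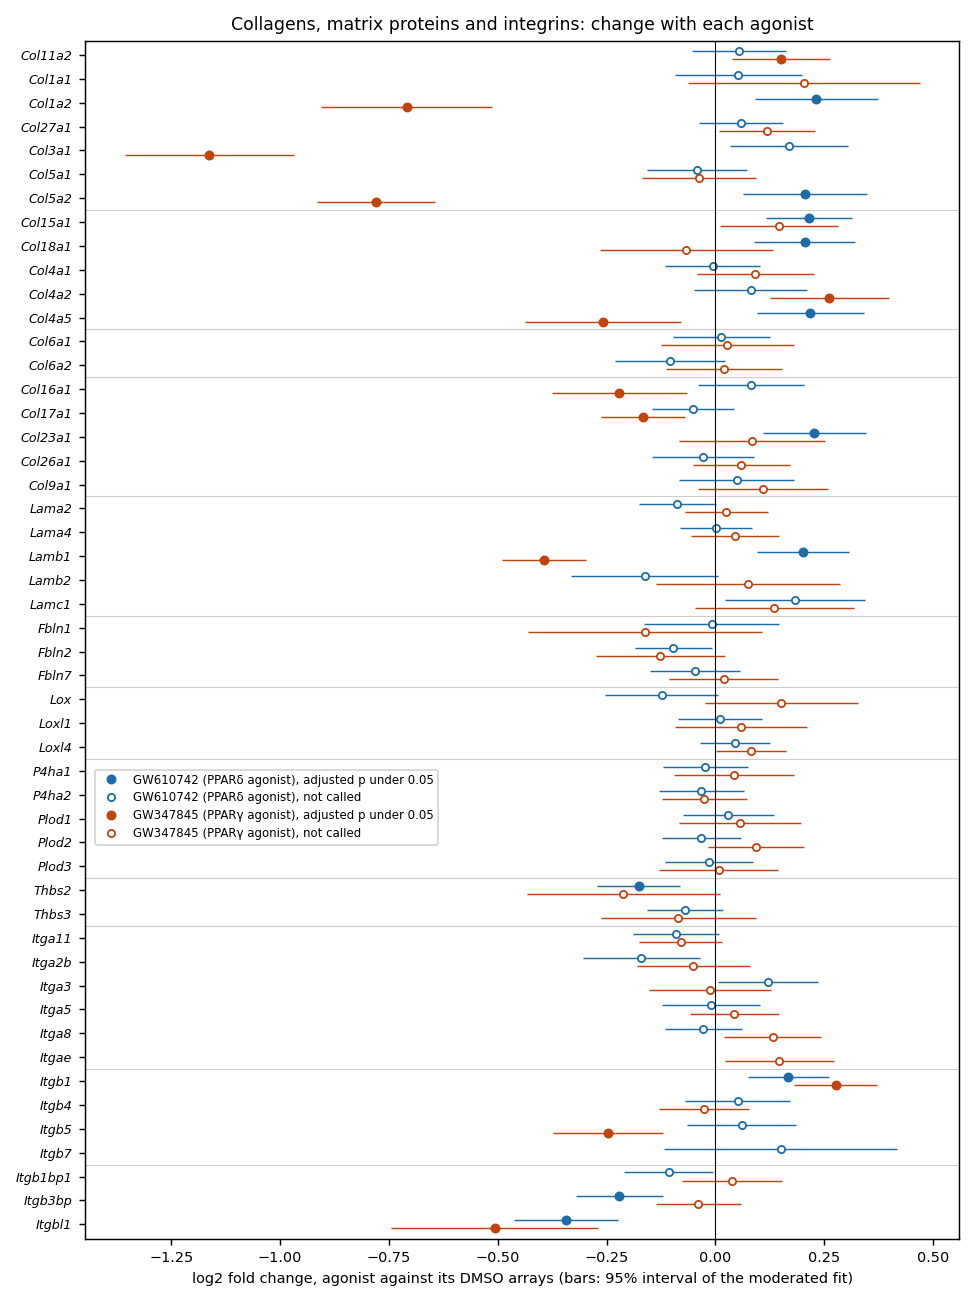
Log2 fold change of each member with GW610742 (blue) and with GW347845 (red) against DMSO, with 95% intervals of the moderated fit, ordered by family with grey lines between families; filled points had an adjusted p under 0.05. Col3a1, Col5a2, Col1a2 and Lamb1 lie to the left with the PPARγ agonist, at -1.16, -0.78, -0.71 and -0.39, and to the right with the PPARδ agonist.

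Of these members, RefSeq (GRCm38.p6) gives windows around the transcription start of Col3a1, Col1a2 and Lamb1, here from 250 bases before it to 50 after. They are shown because the 3 genes fell together and their windows are unlike, with capitals marking 3 motifs searched on both strands: the CCAAT box, the TATAAA box and GGGCGG, the GC box bound by Sp1 factors.
Col3a1, plus strand, chr1:45311288-45311587: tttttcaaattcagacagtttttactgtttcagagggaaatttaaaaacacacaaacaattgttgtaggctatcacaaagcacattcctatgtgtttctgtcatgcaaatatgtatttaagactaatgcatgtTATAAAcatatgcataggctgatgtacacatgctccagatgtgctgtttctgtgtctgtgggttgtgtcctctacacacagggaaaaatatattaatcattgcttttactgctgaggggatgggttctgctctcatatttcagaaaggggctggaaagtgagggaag
Col1a2, plus strand, chr6:4505368-4505667: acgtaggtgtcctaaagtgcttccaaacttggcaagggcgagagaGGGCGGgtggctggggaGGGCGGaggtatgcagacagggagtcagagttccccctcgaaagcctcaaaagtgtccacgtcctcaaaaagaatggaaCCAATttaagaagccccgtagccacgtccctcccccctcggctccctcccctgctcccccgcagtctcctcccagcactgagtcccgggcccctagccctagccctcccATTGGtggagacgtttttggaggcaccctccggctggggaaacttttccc
Lamb1, plus strand, chr12:31265043-31265342: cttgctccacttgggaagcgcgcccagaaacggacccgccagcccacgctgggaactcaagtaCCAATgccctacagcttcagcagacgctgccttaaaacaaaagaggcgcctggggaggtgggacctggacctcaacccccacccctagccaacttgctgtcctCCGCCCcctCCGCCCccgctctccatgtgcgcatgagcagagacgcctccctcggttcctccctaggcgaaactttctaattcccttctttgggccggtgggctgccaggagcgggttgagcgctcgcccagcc
The window of Col3a1 is poor in G and C (37.7%) and holds TATAAA with neither other motif, whereas those of Col1a2 (61.0%) and Lamb1 (63.7%) hold CCAAT and GGGCGG and no TATAAA. Over the 45 windows of the 40 members that have any, CCAAT is found in 33.33%, TATAAA in 13.33% and GGGCGG in 60.0%, against 37.41%, 13.62% and 35.66% of the 32851 windows of all genes. AGGTCA, the hexamer that nuclear receptors bind, is found in the windows of Col23a1 and Col9a1 (4.44% of member windows, 16.26% of all), and 2 such hexamers 1 base apart, the form bound by PPARs with RXR, in none of the members' windows and 0.04% of all. The members' windows are also richer in G and C, with a median of 59.0% against 52.7% over all windows. The part of this in the motif shares was not tested. These motifs are letters in a short window and not sites of binding.

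Not every fibrillar collagen followed. Of 7 measured with the PPARγ agonist, 3 fell, 1 rose and 3 did not pass. Col1a1, whose product pairs with that of Col1a2 in type I collagen, ranged from 12.02 to 12.31 (median 12.13) with DMSO and from 11.98 to 12.85 (median 12.31) with the agonist, so that the treated arrays spread across and beyond the controls, and its log2 fold change was 0.20 (95% interval -0.06 to 0.47, adjusted p = 0.25). Col5a1, the partner of Col5a2 in type V collagen, had -0.04 (95% interval -0.17 to 0.09, adjusted p = 0.69). For both chains the interval leaves out a fall as large as that of its partner, although the difference between chains was not itself tested. Col11a2, a chain of cartilage type XI collagen, rose by 0.15 (adjusted p = 0.049) on a probe among the dimmest of the arrays. That call was lost when any of replicates 1, 2, 3 or 5 of GW347845 or 1, 2, 4, 5 or 6 of DMSO was left out (adjusted p up to 0.11) and with cyclic loess (adjusted p = 0.068). Col27a1 had 0.12 (adjusted p = 0.11). In RefSeq, Col3a1 and Col5a2 are neighbouring protein-coding genes on chromosome 1. A further probe of Col5a2 fell too, by 0.34 (adjusted p = 0.0017, no overlap), and a further probe of Col3a1 had -0.25 (SE 0.17, adjusted p = 0.29).

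**Figure D2:**
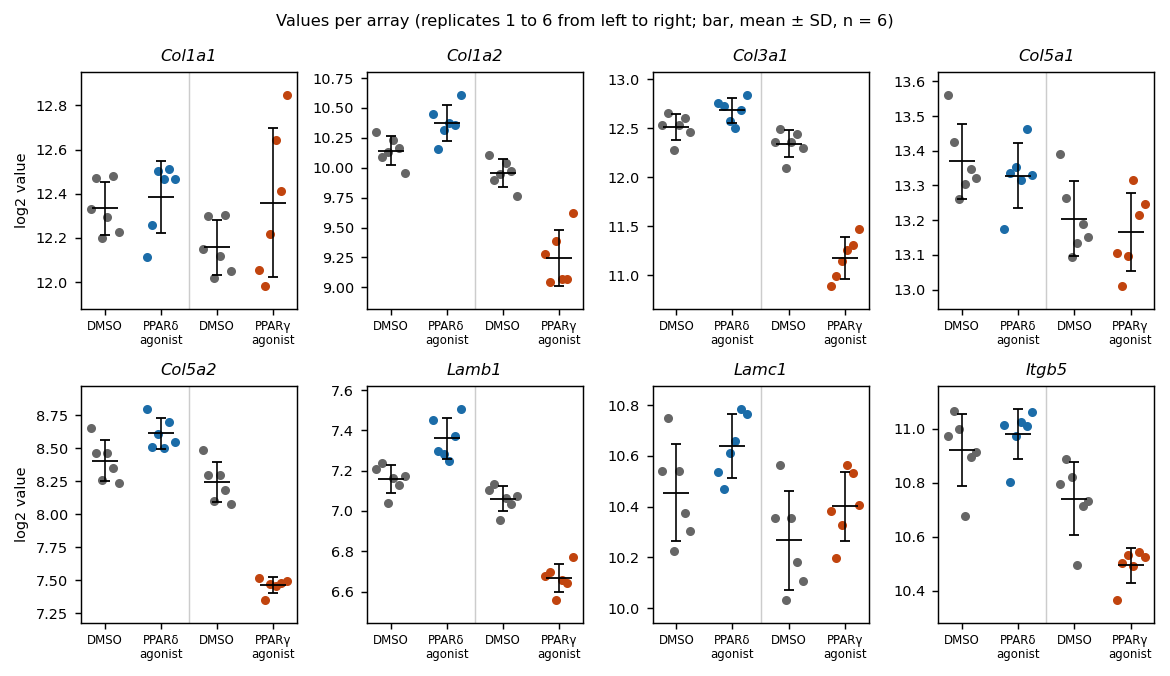
Log2 values of 8 members in each array, with DMSO arrays in grey, GW610742 in blue and GW347845 in red, and bars for mean ± SD (n = 6); the controls left and right of the grey line are the same hybridizations normalized apart. The GW347845 arrays lie under all their controls for Col1a2, Col3a1, Col5a2 and Lamb1, and on both sides of them for Col1a1 (11.98 to 12.85).

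Across all families, 9 of the 49 members fell with the PPARγ agonist, where 12.8% of the 8297 genes tested did, and 3 rose, where 10.2% of all genes did. The remaining 37 did not pass, 17 members in all had an unadjusted p under 0.05, and the median log2 fold change of the members was 0.02, against 0.03 over all genes. Neither share was tested against that of all genes, and the count that rose was not steady: it was 6 without replicate 6 of GW347845 and 6 with array weights. Beside those above, the falls were in Itgbl1, Col4a5, Itgb5, Col16a1 and Col17a1. Itgbl1, a secreted protein with integrin-like EGF repeats that is no integrin subunit, ranged from 10.00 to 10.26 (median 10.04) with DMSO and from 9.29 to 9.93 (median 9.48) with the agonist, a log2 fold change of -0.51 (SE 0.11, adjusted p = 0.0038). The groups did not overlap, and the treated arrays were widely spread. Itgb5, the β5 subunit that pairs with αv in a vitronectin receptor, ranged from 10.50 to 10.89 (median 10.76) with DMSO and from 10.37 to 10.54 (median 10.51) with the agonist, and fell by 0.25 (SE 0.060, adjusted p = 0.0073). Only the lowest DMSO array, at 10.50, reached into the treated range. Col17a1, a transmembrane collagen of hemidesmosomes, fell by 0.17 (adjusted p = 0.016) on a probe that is also dim. Col16a1, a collagen associated with fibrils, had -0.22 (SE 0.073, adjusted p = 0.039), a call that was lost without replicate 1, 2 or 3 of GW347845 or 1, 2 or 6 of DMSO (adjusted p up to 0.085).

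The chains of type IV collagen, the sheet of the basement membrane, parted. Col4a2 ranged from 11.69 to 12.07 (median 11.83) with DMSO and from 11.99 to 12.21 (median 12.12) with the PPARγ agonist, and rose by 0.26 (SE 0.064, adjusted p = 0.0080). Only the highest DMSO array, at 12.07, reached into the treated range. Col4a1, which assembles with Col4a2, had 0.09 (95% interval -0.04 to 0.23, adjusted p = 0.31), and Col4a5, a chain better known from the kidney filter, fell by 0.26 (SE 0.084, adjusted p = 0.036). The call of Col4a5 was lost without any of replicates 1 to 4 of GW347845 or replicates 1, 2, 4, 5 or 6 of DMSO (adjusted p up to 0.084) and with the mean of its probes (adjusted p = 0.32), and its further probe had 0.05 (adjusted p = 0.69). Col4a1 and Col4a2 are transcribed away from each other from 1 region of chromosome 8, and the window of Col4a1 on the minus strand (chr8:11312777-11313076) shares 78 bases with that of Col4a2, which is shown for that reason, with the same motifs in capitals.
Col4a2, plus strand, chr8:11312555-11312854: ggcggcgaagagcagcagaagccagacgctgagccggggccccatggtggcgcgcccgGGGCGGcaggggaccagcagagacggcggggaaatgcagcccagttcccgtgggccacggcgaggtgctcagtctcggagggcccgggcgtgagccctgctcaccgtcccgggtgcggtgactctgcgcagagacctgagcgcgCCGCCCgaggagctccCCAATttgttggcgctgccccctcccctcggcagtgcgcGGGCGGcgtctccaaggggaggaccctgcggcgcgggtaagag
Of the other laminins, Lamc1, the γ1 chain that joins the β1 chain in most laminins, had 0.13 (95% interval -0.05 to 0.32, adjusted p = 0.27), and Lama2, Lama4 and Lamb2 had 0.02 to 0.08. Col15a1 and Col18a1, collagens of the basement membrane zone, had 0.15 (adjusted p = 0.11) and -0.07 (adjusted p = 0.64).

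The enzymes that modify and cross-link collagen passed with neither agonist. The 5 hydroxylases (P4ha1, P4ha2, Plod1, Plod2 and Plod3) had log2 fold changes from -0.03 to 0.09 with the PPARγ agonist and from -0.03 to 0.03 with the PPARδ agonist, and the 3 lysyl oxidases (Lox, Loxl1 and Loxl4) from 0.06 to 0.15 and from -0.12 to 0.05. The 95% intervals of the hydroxylases reached down to -0.13 and up to 0.20. Against the mean of all 6 DMSO arrays, replicates 1 to 3 and 4 to 6 of GW347845 averaged -0.01 and 0.32 for Lox. They averaged -0.08 and 0.20 for Loxl1 and 0.09 and 0.08 for Loxl4. Of the hydroxylases P4ha1 was furthest apart, at -0.09 and 0.18. The difference between these sets was not tested. The beaded filament collagens Col6a1 and Col6a2, abundant around adipocytes, had 0.03 and 0.02 with the PPARγ agonist and 0.01 and -0.10 with the PPARδ agonist. A further probe of Col6a1 fell by 0.14 with the PPARγ agonist (adjusted p = 0.043). The fibulins, adapters of elastic fibres and basement membranes, did not pass on their brightest probes. Fbln1 had -0.16 (adjusted p = 0.38) with the PPARγ agonist, whereas a further probe fell by 0.26 (adjusted p = 0.012). A further probe of Fbln2 rose with both agonists, by 0.25 (adjusted p = 0.042) and by 0.29 with the PPARδ agonist (adjusted p = 0.026), while its brightest probe had -0.13 and -0.10.

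Among integrins, subunits of the α class did not pass on their brightest probe with either agonist (6 measured with the PPARγ agonist, from -0.08 to 0.15, and 5 with the PPARδ agonist, from -0.17 to 0.12). Itgb1, the β1 subunit shared by the collagen and laminin receptors, ranged from 7.97 to 8.17 (median 8.004) with DMSO and from 8.26 to 8.41 (median 8.31) with the PPARγ agonist, and rose by 0.28 (SE 0.045, adjusted p = 0.00031) with no overlap. With the PPARδ agonist it rose by 0.17 (SE 0.044, adjusted p = 0.016). A further probe of Itgb1 went the other way in both comparisons, by -0.28 (adjusted p = 0.00093, no overlap) and -0.16 (adjusted p = 0.041), and the mean of both probes had -0.0010 (adjusted p = 0.99) and 0.0016 (adjusted p = 0.98). The direction of Itgb1 therefore rests on the probe. Itga2b, the α subunit of the platelet fibrinogen receptor, had -0.17 (adjusted p = 0.076) with the PPARδ agonist on its brightest probe and fell by 0.25 (adjusted p = 0.0090) on another. Its brightest probe passed without replicate 6 of GW610742 or replicate 2 of DMSO (adjusted p down to 0.031), with array weights (adjusted p = 0.033) and with the mean of its probes (-0.21, adjusted p = 0.018).

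With the PPARδ agonist the changes were smaller and most of those called were rises. Of 49 members 8 rose, where 8.26% of the 8289 genes tested did, and 3 fell, where 8.69% did. The other 38 did not pass, 17 members in all had an unadjusted p under 0.05, and the median log2 fold change was 0.0015 against -0.01 over all genes. Of the 8 rises, 6 were of collagens, with folds from 1.15 to 1.17. They were 2 of 7 fibrillar, 3 of 5 basement membrane and network, 1 of 5 other and 0 of 2 beaded filament collagens. The median changes of these families were 0.06, 0.20, 0.05 and -0.05. Col15a1 ranged from 7.64 to 7.75 (median 7.71) with DMSO and from 7.83 to 8.09 (median 7.90) with the agonist, and rose by 0.21 (SE 0.047, adjusted p = 0.0057). All treated arrays were above all controls. Col18a1, the source of endostatin, rose by 0.20 (adjusted p = 0.018), Col4a5 by 0.22 (adjusted p = 0.018) and the transmembrane collagen Col23a1 by 0.23 (adjusted p = 0.012), each with some overlap. A further probe of each was not called, and with the mean of both probes the calls of Col23a1 (adjusted p = 0.12) and Col4a5 (adjusted p = 0.17) were lost. Of 5 basement membrane collagens 3 rose, and Col4a1 (-0.01) and Col4a2 (0.08) did not pass.

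The fibrillar chains that fell with the PPARγ agonist were a little higher with the PPARδ agonist. Col1a2 ranged from 9.95 to 10.30 (median 10.15) with DMSO and from 10.16 to 10.61 (median 10.36) with the agonist, and rose by 0.23 (SE 0.067, adjusted p = 0.024), with overlapping groups. Leaving out replicate 1 of GW610742 or replicate 6 of DMSO took its adjusted p up to 0.061. Col5a2 rose by 0.21 (SE 0.068, adjusted p = 0.044), a call that did not hold without replicate 1, 3 or 5 of GW610742 or 3, 4, 5 or 6 of DMSO (adjusted p up to 0.10) or with the mean of its 2 probes (adjusted p = 0.20). Col3a1 had 0.17 (95% interval 0.03 to 0.31, adjusted p = 0.077) and passed without replicate 4 of GW610742 or replicate 2 of DMSO (adjusted p down to 0.038), and with the mean of its 2 probes it had -0.01. Lamb1 ranged from 7.04 to 7.24 (median 7.17) with DMSO and from 7.25 to 7.51 (median 7.33) with the agonist, and rose by 0.20 (SE 0.050, adjusted p = 0.012). Its groups were just apart, at 7.24 and 7.25, on the same dim probe. Lamc1 had 0.18 (adjusted p = 0.11) and passed without replicate 2 of DMSO (adjusted p = 0.023) and with array weights (adjusted p = 0.037).

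The 3 falls with the PPARδ agonist were outside the collagens. Itgbl1 ranged from 10.19 to 10.45 (median 10.23) with DMSO and from 9.76 to 10.04 (median 9.93) with the agonist, and fell by 0.34 (SE 0.057, adjusted p = 0.00089). Thbs2, a matricellular thrombospondin that limits vessel growth and fibril size, ranged from 13.37 to 13.56 (median 13.44) with DMSO and from 13.16 to 13.33 (median 13.29) with the agonist, and fell by 0.18 (SE 0.045, adjusted p = 0.014). Itgb3bp, a nuclear protein of the kinetochore named for its binding to the β3 tail, fell by 0.22 (SE 0.047, adjusted p = 0.0050). In all 3 genes the groups did not overlap. The other thrombospondin, Thbs3, had -0.07 (adjusted p = 0.27), and a further probe of it rose by 0.16 (adjusted p = 0.029).

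Because the controls are shared, the agonists were compared directly through responses, the value of a treated array less the average of the DMSO arrays normalized with it. The compounds, their receptors and the labelled concentrations all differ, so this compares the treatments as given. Of 48 members present in both, 8 had a higher response to the PPARδ agonist, where 13.8% of the 8197 genes tested did, and 5 a lower one, where 14% did. The median difference was -0.02 for the members and -0.05 for all genes. Col3a1 had responses from -0.01 to 0.33 with the PPARδ agonist and from -1.45 to -0.87 with the PPARγ agonist, a difference of 1.33 (SE 0.089, adjusted p = 7.4e-08), whereas its further probe had 0.06 (adjusted p = 0.72). Col5a2 differed by 0.99 (SE 0.055, adjusted p = 2.2e-08; 0.33 on its further probe, adjusted p = 0.0022), Col1a2 by 0.94 (SE 0.097, adjusted p = 2.9e-06) and Lamb1 by 0.60 (SE 0.053, adjusted p = 6.8e-07). In these 4 genes all responses to the PPARδ agonist lay above all responses to the PPARγ agonist.

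Col4a5 (0.48, adjusted p = 0.00042), Itgb5 (0.31, adjusted p = 0.00026) and Col16a1 (0.30, adjusted p = 0.00086) also differed, with responses of Itgb5 and Col16a1 that did not overlap. The further probe of Col4a5 had -0.06 (adjusted p = 0.58). The last of the 8, Col17a1, had 0.11 (adjusted p = 0.0496) and lost the call without replicate 1, 2, 3, 5 or 6 of GW610742, the same numbers of GW347845, or 2, 3 or 5 of DMSO (adjusted p up to 0.099) and with the robust prior (adjusted p = 0.066). Col18a1, at 0.27, just missed the threshold (adjusted p = 0.0504). Lower with the PPARδ agonist were Col4a2 (-0.18, adjusted p = 0.016), Itgb3bp (-0.18, adjusted p = 0.0052), Itga8 (-0.16, adjusted p = 0.029), Itgb1bp1, which binds the β1 tail inside the cell (-0.15, adjusted p = 0.035), and Lox, which cross-links collagen (-0.28, adjusted p = 0.036). The last 3 of these were not called against DMSO with either agonist, and their difference was lost without replicate 2 or 3 of GW610742 or 2 or 5 of GW347845 for Itga8 (adjusted p up to 0.066), without replicate 1, 3, 4 or 5 of GW610742 or 4, 5 or 6 of GW347845 for Itgb1bp1 (up to 0.075), and without replicates 1 to 3 of GW610742 or 4 to 6 of GW347845 for Lox (up to 0.082), which also missed with array weights (adjusted p = 0.089). With the mean of its probes Itgb1bp1 had -0.05 (adjusted p = 0.41). Itgbl1 and Thbs2 had differences of 0.16 (95% interval -0.08 to 0.41) and 0.04 (95% interval -0.19 to 0.26) that did not pass. Side by side, 4 members rose with the PPARδ agonist and fell with the PPARγ agonist (Col1a2, Col5a2, Col4a5 and Lamb1). Itgbl1 fell with both, and Itgb1 rose with both on its brightest probe. Of the 48 members measured in both comparisons, 31 were called in neither. These counts were not made over all genes, so their size is not read as particular to the members.

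**Figure D3:**
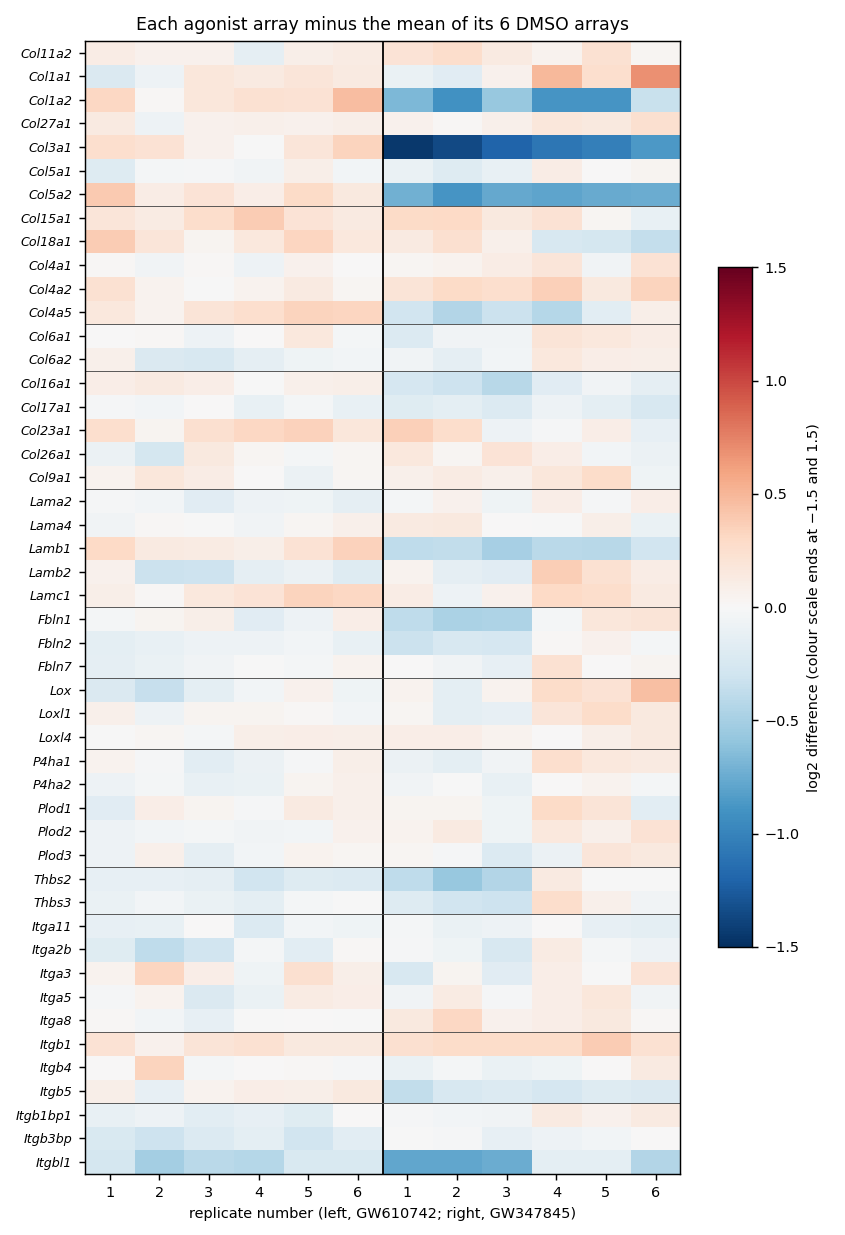
Each treated array minus the mean of its 6 DMSO arrays for the 48 members with both comparisons, with replicates 1 to 6 of GW610742 on the left and of GW347845 on the right; red is higher and blue lower on the log2 scale. Col3a1, Col1a2, Col5a2 and Lamb1 are blue in all 6 GW347845 arrays, whereas Thbs2, Fbln1, Col16a1 and Itgbl1 are darker in replicates 1 to 3 than in replicates 4 to 6.

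The GW347845 arrays did not respond as 1 group. In 18 of the 49 members (36.7%, and 20.6% of all genes) replicates 1 to 3 all lay below replicates 4 to 6, and in 2 (4.08%, and 14.4% of all genes) all above. The labels give no batch behind these numbers, and the difference between the sets of 3 was not tested. When each set of 3 was fitted against the DMSO arrays of the same numbers, Col3a1 had -1.31 and -1.02, Col5a2 -0.85 and -0.71, Col1a2 -0.75 and -0.67 and Lamb1 -0.42 and -0.37, with an adjusted p of at most 0.0042 in each. For other members the sets gave unlike values. Thbs2 had -0.48 (adjusted p = 0.00014) in replicates 1 to 3 and 0.06 (adjusted p = 0.59) in replicates 4 to 6, and -0.21 (adjusted p = 0.16) over all 6, where it passed without replicate 4 of GW347845 (adjusted p = 0.045) and with array weights (adjusted p = 0.020). Fbln1 had -0.30 (adjusted p = 0.0074) and -0.03, and Itgbl1 -0.79 (adjusted p = 1.8e-06) and -0.22 (adjusted p = 0.084). Col16a1 had -0.40 (adjusted p = 0.0016) and -0.04, and Itgb5 -0.37 (adjusted p = 0.00091) and -0.13. These values also carry the spread of the DMSO arrays, since each set has its own. Against the mean of all 6 DMSO arrays the sets of 3 averaged -0.46 and 0.04 for Thbs2, -0.44 and 0.11 for Fbln1, -0.77 and -0.25 for Itgbl1, -0.32 and -0.12 for Col16a1 and -0.27 and -0.22 for Itgb5. The sets of Itgb5 thus differed mostly in their controls, which were at 10.79 to 10.89 in replicates 1 to 3 and at 10.50 to 10.73 in replicates 4 to 6. Col1a1 turned from -0.07 (adjusted p = 0.59) to 0.48 (adjusted p = 0.0076).

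Adipocyte markers moved with these sets. The mean log2 value of the 9 measured of 13 adipocyte markers was 9.67, 9.87 and 10.00 in replicates 1 to 3 of GW347845 and 9.06, 8.87 and 8.73 in replicates 4 to 6, against 8.79 to 9.38 in the DMSO arrays. Of the 9 changes over all 6 arrays, 7 were positive, the largest that of Cidec (1.32, adjusted p = 0.073). The 2 negative ones were Lep (-0.12) and Pparg (-0.04). Fabp4 alone was called (0.53, adjusted p = 0.016). Its probe was dim, at 6.39 ± 0.06 (SD, n = 6) with DMSO, and its groups overlapped. The mean of the 12 measured of 13 preadipocyte and fibroblast markers was 10.40 to 10.49 in replicates 1 to 3. It was 10.51 to 10.56 in replicates 4 to 6 and 10.52 to 10.60 with DMSO. Over all 6 arrays, 6 of the 12 markers had a positive change and 6 a negative one. Only 2 were called, S100a4, which fell by 0.71 (adjusted p = 4.3e-05), and Fap, by 0.39 (adjusted p = 2.6e-05). Pdgfra had -0.10, Dlk1 0.05 and Vim 0.20. With the PPARδ agonist S100a4 rose by 0.36 (adjusted p = 0.0015). Fap fell by 0.18 (adjusted p = 0.016) and Twist1 by 0.19 (adjusted p = 0.016) there, and 9 were not called. The part of these markers in the collagen changes was not tested. With the PPARδ agonist the 7 measured adipocyte markers averaged 9.62 to 10.32, against 9.56 to 10.31 with DMSO. Of the 7 changes 6 were positive and 1 negative. Cidec alone was called (0.81, adjusted p = 0.0496), with overlapping groups. With each array left out, 0 to 3 of these markers were called. The contractile fibroblast markers measured were 3 of 5, of which Myl9 fell with the PPARδ agonist by 0.21 (adjusted p = 0.010) and none was called with the PPARγ agonist.

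**Figure D4:**
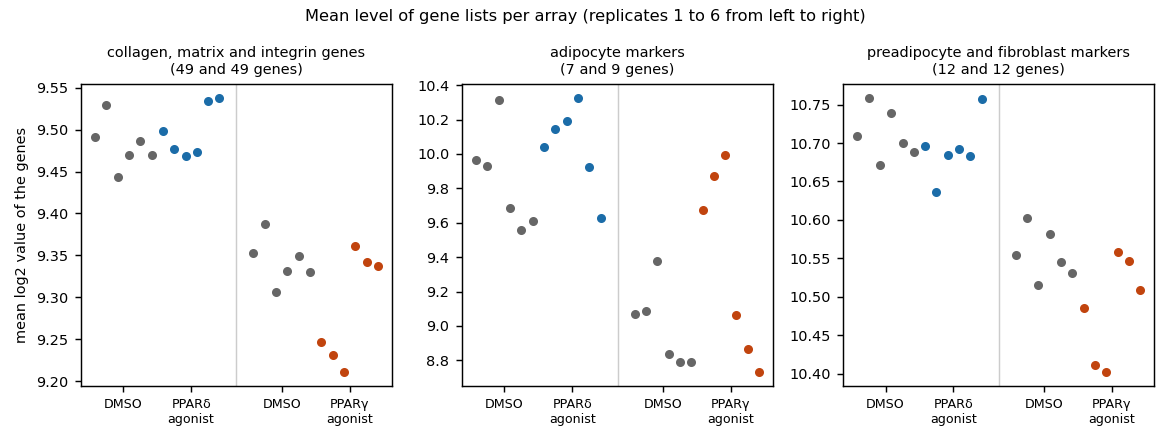
Mean log2 value per array of the members, of the adipocyte markers and of the preadipocyte and fibroblast markers, with DMSO in grey, GW610742 in blue and GW347845 in red, in the order of the replicate numbers; left and right of the grey line values were normalized apart. The first 3 GW347845 arrays are high for adipocyte markers (9.67 to 10.00) and low for the members (9.21 to 9.25), and the last 3 lie near or within the controls.

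Of the matrix genes outside the member families, 1 of 33 measured rose and 4 fell with the PPARγ agonist, where 10.2% and 12.8% of all genes did. With the PPARδ agonist 4 of 34 rose and 6 fell, where 8.26% and 8.69% of all genes did. Neither these counts nor those of the next lists were tested against all genes, and no more than the named genes is read from them. Vcan, the large proteoglycan versican, fell by 0.41 (adjusted p = 0.00012) with the PPARγ agonist and rose by 0.37 (adjusted p = 0.0016) with the PPARδ agonist, a difference between the responses of 0.78 (adjusted p = 8.3e-07). Its probe was dim in the PPARγ comparison, with means of 7.23 with DMSO and 6.82 with the agonist. Hspg2, the basement membrane proteoglycan perlecan, rose with both, by 0.36 (adjusted p = 0.023) and 0.43 (adjusted p = 0.0011). Mfap5 (-0.50, adjusted p = 0.00076) and Mfap2 (-0.28, adjusted p = 0.0053), glycoproteins of elastic microfibrils, fell with the PPARδ agonist, and Tnc (0.43, adjusted p = 0.00095) and Ltbp1 (0.35, adjusted p = 0.00096), which stores latent TGF-β in the matrix, rose. The probe of Tnc was dim, with means of 6.76 with DMSO and 7.18 with the PPARδ agonist.

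Inside the cell, 3 of 16 genes of focal adhesions, where integrins meet actin, fell and 1 rose with the PPARγ agonist, beside the same 12.8% and 10.2% of all genes. Rsu1, a partner of the integrin-linked kinase complex, fell by 0.77 (adjusted p = 3.8e-07), Vcl, vinculin, by 0.23 (adjusted p = 0.0083) and Fermt2, which activates integrins, by 0.19 (adjusted p = 0.0099), while Flna, a filamin, rose by 0.33 (adjusted p = 0.0040). With the PPARδ agonist 3 rose, where 8.26% of all genes did, and 3 fell, where 8.69% did. Among them were Flna with 0.41 (adjusted p = 0.00020) and the adhesion protein Zyx with -0.24 (adjusted p = 0.0015). TGF-β itself drives collagen synthesis in fibroblasts. Of 14 genes of TGF-β and related signalling, 4 fell with the PPARγ agonist (12.8% of all genes) and 1 rose (10.2%). The falls were in the BMP receptor Bmpr1a (-0.85, adjusted p = 8.6e-05), Acvr1 (-0.31, adjusted p = 0.0046), Eng (-0.20, adjusted p = 0.044) and Tgfb2 (-0.14, adjusted p = 0.038). The rise was in the co-receptor Tgfbr3 (0.37, adjusted p = 0.0025). The part of these genes in the collagen changes was not tested. Tgfbr3 was also the 1 called with the PPARδ agonist (0.23, adjusted p = 0.023), and Tgfb1 itself had 0.08 and 0.04 with the PPARγ and PPARδ agonists and was called with neither.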

How the data were processed

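RNA of 3T3-L1 cells was measured on Illumina mouse WG-6 arrays. The deposited log2 values were made by the authors from bead intensities with lumi: probes with a detection p under 0.01 in at least 1 sample were kept, transformed by variance stabilization and quantile normalized, each agonist's arrays with the DMSO arrays. Of 13964 probes, 12157 carried 1 gene symbol, 4 several and 1803 none, and 12144 symbols matched RefSeq. The PPARδ comparison has 13718 probes with values and the PPARγ comparison 13755.

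Groups were compared in R 4.3.3 with limma 3.58.1 (moderated variances, two-sided) on the values as deposited, and p-values were adjusted by Benjamini-Hochberg across every probe of a comparison, with a threshold of 0.05. The difference between responses was fitted over 13509 probes. With 6 arrays a group, their number limits the precision. Named genes are members called in either comparison, the 3 with the largest change among those not called, and the 10 with the smallest p for the difference. Others named, among them Col5a1, Lox, Itgb1bp1 and the hydroxylases, and the genes of the other lists were chosen after their values were seen. Members and lists were chosen with earlier results of these data known. The fits were tested on simulated data. Alternatives were each array left out, replicates 1 to 3 or 4 to 6 alone, averaging a gene's probes, dropping dim probes, cyclic loess, centring on the median, array weights, a replicate block, and a robust prior for the variance with a trend. Figures used matplotlib 3.10.9 in Python 3.11.15. The authors' metabolite data were not analysed here.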

Additional observations from a re-analysis of the deposited data

Results flagged for a closer look

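Over 58 groups of values of named members, 1 held an array far from the others. Itgb5 with the PPARγ agonist had 10.37 in replicate 1, where the nearest array had 10.49 and the highest 10.54, so that the gap took 0.709 of the whole range (past Dixon's critical value for 6 arrays). Chance gives such a gap in about 1 of 20 groups. Without any 1 array the fall of Itgb5 ranged from -0.30 to -0.22, with an adjusted p of at most 0.019.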

How the results depend on the processing

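The falls of Col3a1, Col5a2, Col1a2 and Lamb1 with the PPARγ agonist and their differences between the agonists kept their direction and passed in every alternative that gave a value, where Lamb1 has none under the filter on dim probes, which removes its probe. Array weights took the members that rose with the PPARγ agonist from 3 to 6, and the mean of all probes took those that rose with the PPARδ agonist from 8 to 4. In replicates 1 to 3 alone the PPARδ agonist gave 1 called member, of which 0 rose and 1 fell (limma), and 3 members were lower in the difference, with a median of 0.010. In replicates 4 to 6 alone 8 rose and 5 fell with the PPARγ agonist, and the median difference was -0.068. These fits hold fewer arrays. Directions turned for Col3a1 with the PPARδ agonist (-0.010) and Itgb1 with the PPARγ agonist (-0.0010) with the mean of all probes, for Thbs2 with the PPARγ agonist in replicates 4 to 6 (0.058) and for Col1a1 in replicates 1 to 3 (-0.071). The cause was not tested.

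With each array left out, 9 to 14 members were called with the PPARδ agonist (6 to 10 rose, 3 to 4 fell, median -0.012 to 0.016), 9 to 15 with the PPARγ agonist (2 to 6 rose, 7 to 9 fell, median 0.0017 to 0.043), where 6 rose without replicate 6 of GW347845, and 9 to 16 in the difference (7 to 8 higher, 2 to 8 lower, median -0.047 to -0.0033). Of the lower, 2 or 3 were left without replicate 2 or 3 of GW610742 or 4, 5 or 6 of GW347845, and 8 without replicate 3 of GW347845. Deviations of arrays with the same number correlated from -0.23 to 0.29 in the PPARδ and from -0.02 to 0.55 in the PPARγ comparison, and 2 of 6 and 4 of 6 numbers matched their own best, a hint of pairing with the PPARγ agonist. Since replicate 2 had -0.02 there and the labels name nothing shared, the numbers were not taken as pairs. With the replicate block, 12, 12 and 14 members were called in the 3 comparisons, against 11, 12 and 13, and Itga2b passed with the PPARδ agonist (adjusted p = 0.021) while the difference of Col17a1 was lost (adjusted p = 0.094). In each comparison 13 members had a probe among those the filter on dim probes removes, where signal over background limits what can be seen.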
